A study of Mus musculus with 14 samples.

Results

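Solute carriers are membrane proteins that move ions, nutrients and metabolites across the plasma membrane, the mitochondrial inner membrane and the membranes of vesicles. The regions described here are those whose nearest protein-coding gene in a GRCm38 gene table has a symbol starting with Slc and a digit or with Slco, other than Slc38a5 and Slc2a2. A region that overlaps a gene has distance 0 to it, and ties go to the gene whose end is closer. This rule found 118 of the 6758 regions listed in the authors' deposited table of NKX2.2 binding. They belong to 84 of the 387 such protein-coding genes.

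NKX2.2 is a homeodomain transcription factor, KLF4 a zinc-finger transcription factor, and alphaTC6 a cell line of mouse alpha cells, the islet cells that make glucagon. Chromatin immunoprecipitation with an antibody to NKX2.2, followed by sequencing of the recovered DNA (ChIP-seq), was done in cells of WT genotype 48 h after transfection with siScramble or with a Klf4-KD siRNA. The NKX2.2 ChIP was done in 4 scramble samples and in 3 with Klf4-KD, and the same numbers of input samples were made from this line. All groups share the line, the WT genotype and the transfection, and the series' text calls the replicates biological. The table holds 1 comparison of the ChIP groups, made by the authors with csaw, and no column for any single sample. The library depth, the spread between samples and the level of Klf4 in the knockdown therefore cannot be read from it, and glucagon expression as a check of the cell type was not analysed here. The table does not name the group in the numerator, so regions are given as listed as up (positive log2 fold change) or down (negative), not as gained or lost in the knockdown.

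In islet cells, solute carriers bring in the amino acids and sugars that endocrine cells sense, load zinc and neurotransmitters into secretory vesicles, and set sodium, calcium, chloride and proton gradients. Alpha cells secrete glucagon in response to amino acids, and amino acid carriers are part of that response. Zinc transporters of the Slc30 family move zinc out of the cytosol or into vesicles, and those of the Slc39 family move it into the cytosol.

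Only a few of the regions lay at promoters. Of the 84 genes, 64 have an entry in a RefSeq promoter table of GRCm38.p6, which gives the 250 bases before and 50 after a start site. In 9 cases the listed region overlapped such a window of its own gene. The 250 bases upstream of the start site are shown for the 7 of these genes that encode transporters, because a listed region falls on them, 5′ to 3′ on the strand of the gene, with the bases inside the listed region in capitals. The Slc25a16 window (chr10:62920383-62920632, + strand) and that of Slc25a15 (chr8:22398622-22398871, - strand) each hold a region made of 1 counting window of 10 bp. Those of Slc4a8 (chr15:100761497-100761746, + strand), Slc15a4 (chr5:127617393-127617642, - strand) and Slc25a17 (chr15:81360766-81361015, - strand) each hold a whole region of 60 bp. The windows of Slc35f6 (chr5:30647689-30647938, + strand) and Slc39a3 (chr10:81037316-81037565, - strand) hold 88 and 245 bases of regions that run on past the start site.
Slc25a16: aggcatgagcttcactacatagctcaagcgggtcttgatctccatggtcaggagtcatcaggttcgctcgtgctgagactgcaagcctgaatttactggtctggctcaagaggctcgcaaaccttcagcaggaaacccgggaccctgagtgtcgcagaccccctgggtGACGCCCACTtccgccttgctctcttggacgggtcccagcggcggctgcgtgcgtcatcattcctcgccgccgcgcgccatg
Slc25a15: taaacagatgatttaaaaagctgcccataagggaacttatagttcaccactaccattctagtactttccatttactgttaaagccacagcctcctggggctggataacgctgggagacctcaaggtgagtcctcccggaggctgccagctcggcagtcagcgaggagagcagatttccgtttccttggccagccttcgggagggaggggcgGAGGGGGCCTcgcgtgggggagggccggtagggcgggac
Slc4a8: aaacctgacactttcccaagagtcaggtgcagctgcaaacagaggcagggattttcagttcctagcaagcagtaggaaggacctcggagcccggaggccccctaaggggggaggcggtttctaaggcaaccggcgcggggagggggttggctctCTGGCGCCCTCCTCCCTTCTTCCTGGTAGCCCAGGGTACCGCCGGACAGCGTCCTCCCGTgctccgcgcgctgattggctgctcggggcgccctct
Slc35f6: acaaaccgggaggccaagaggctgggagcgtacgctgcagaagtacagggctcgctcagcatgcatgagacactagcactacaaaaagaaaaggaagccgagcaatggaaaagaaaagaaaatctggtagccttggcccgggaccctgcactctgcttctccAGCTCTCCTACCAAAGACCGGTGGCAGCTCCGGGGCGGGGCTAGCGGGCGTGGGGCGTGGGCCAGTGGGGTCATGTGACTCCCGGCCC
Slc15a4: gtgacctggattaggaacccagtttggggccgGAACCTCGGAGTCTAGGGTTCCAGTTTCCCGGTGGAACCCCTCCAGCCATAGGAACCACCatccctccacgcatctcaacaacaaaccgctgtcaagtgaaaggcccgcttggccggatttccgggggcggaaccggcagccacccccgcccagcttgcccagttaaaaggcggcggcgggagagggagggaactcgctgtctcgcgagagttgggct
Slc25a17: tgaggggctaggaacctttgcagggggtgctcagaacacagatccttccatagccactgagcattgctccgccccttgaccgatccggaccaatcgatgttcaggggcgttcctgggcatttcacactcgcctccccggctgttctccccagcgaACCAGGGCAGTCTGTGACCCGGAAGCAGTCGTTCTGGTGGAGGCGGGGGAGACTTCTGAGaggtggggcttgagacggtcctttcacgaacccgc
Slc39a3: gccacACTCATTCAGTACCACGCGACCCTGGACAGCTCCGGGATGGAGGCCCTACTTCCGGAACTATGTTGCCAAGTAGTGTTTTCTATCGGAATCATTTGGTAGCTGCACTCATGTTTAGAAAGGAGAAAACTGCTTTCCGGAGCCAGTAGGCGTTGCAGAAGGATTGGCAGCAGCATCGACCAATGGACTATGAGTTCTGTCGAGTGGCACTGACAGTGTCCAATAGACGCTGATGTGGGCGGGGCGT

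The GC share was 64.8% of the bases shown for Slc4a8, 62.8% for Slc15a4, 61.2% for Slc25a17, 60.8% for Slc25a16, 60.4% for Slc35f6, 57.6% for Slc25a15 and 52.8% for Slc39a3. Letters that NKX2.2 and KLF proteins are known to prefer were searched on both strands of the 300-base windows: AAGTG, the longer TNAAGTG (every match of which is also a match of AAGTG), and GGGNGNGG. In Slc25a16, AAGTG is read on the opposite strand at positions -76 to -72 from the start site, and 4 of its 5 bases lie in the listed region. In Slc15a4, TNAAGTG lies at -126 to -120, outside the capitals and on the side nearer the start site. In Slc35f6, GGGNGNGG occurs 3 times between -56 and -29, all within the listed region. The Slc39a3 promoter holds GGGNGNGG once, at -11 to -4, also inside the listed region. Slc4a8 holds AAGTG on the opposite strand at -242 to -238 and GGGNGNGG at -144 to -137 and -113 to -106. Slc15a4 holds GGGNGNGG 4 times between -95 and -33, and all of these matches lie outside the listed regions. Slc25a15 holds GGGNGNGG at -49 to -42 and -24 to -17, on either side of its region, and the bases shown for Slc25a17 hold none of the 3. Past the start site, beyond the bases shown, GGGNGNGG occurs in Slc25a16 (13 to 20) and Slc25a15 (24 to 31), and AAGTG in Slc25a17 (24 to 28). Of all 32817 promoter windows, 46.4% hold AAGTG, 11.5% TNAAGTG and 49.5% GGGNGNGG. Among the 1705 windows that overlap any listed region, the shares were 47.9%, 8.91% and 65.0%. Among the 387 solute carrier windows they were 40.3%, 9.30% and 63.8%, and of the 11 solute carrier windows that overlap a listed region, whatever its nearest gene, 7 held AAGTG, 2 TNAAGTG and 9 GGGNGNGG. A match is a description of the letters and not a binding site.

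A listed region was nearest to 21.7% of solute carrier genes, close to the 20.8% of all 21887 protein-coding genes. The share differed among substrate classes as the plot of genes with a region shows. It was 14 of 47 for mitochondrial carriers (the Slc25 family), 6 of 21 for sodium-calcium and sodium-proton exchangers and 11 of 52 for amino acid carriers. For carriers of bicarbonate, chloride, phosphate and sulfate it was 12 of 44, and for carriers of bile acids and organic ions 5 of 48. Whole families had none. No region was nearest to any of the 7 Slc1 glutamate and neutral amino acid carriers, the 6 Slc27 fatty acid transporters, the 5 Slc13 carriers or the 4 Slc18 genes, which include the vesicular amine transporters. The table holds only windows that the authors kept, so a gene with no region is not shown to be unbound.

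**Figure D1:**
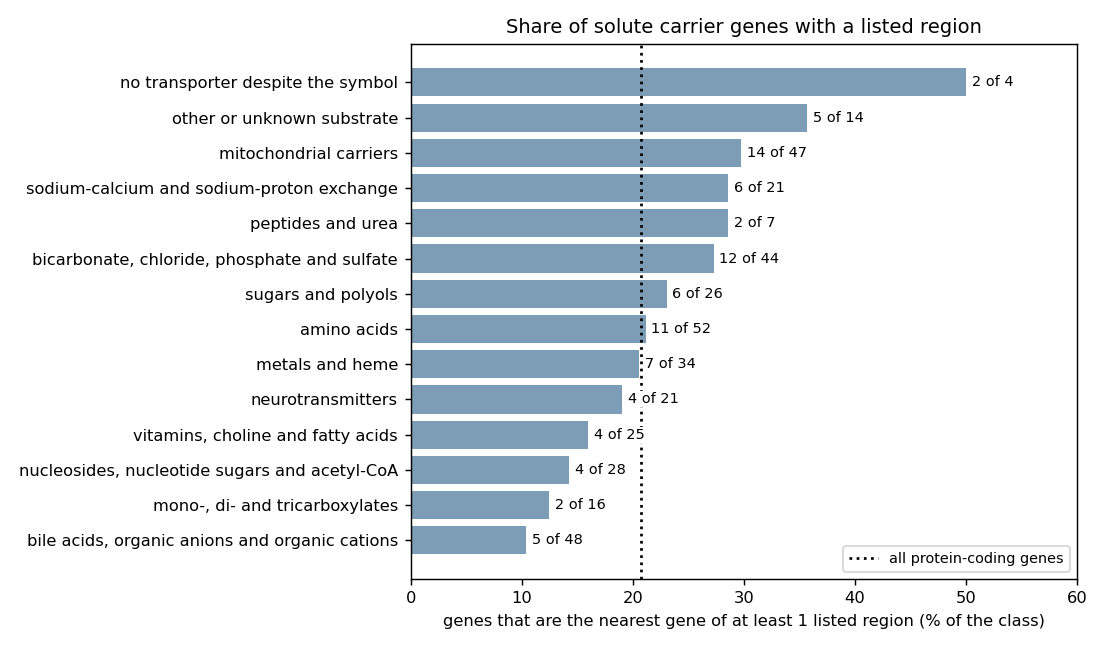
Bars give, for each substrate class, the percentage of its protein-coding genes that were the nearest gene of at least 1 listed region, with the counts beside them; the dotted line is the share of all protein-coding genes. Mitochondrial carriers (the Slc25 family) reached 14 of 47 and carriers of bile acids and organic ions 5 of 48.

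The 118 regions resembled the whole table in most respects. Their median width was 110 bp and they held a median of 3 windows, the same as over all regions, with a range of 10 to 860 bp. Of the 118, 65 lay inside their gene (55.1%, against 55.8% of all regions), 86 inside it or within 10 kb, and 11 farther than 100 kb away. None overlapped a second protein-coding gene, and for 21 another protein-coding gene lay within 10 kb. Midpoints within 1 kb of a gene end were less frequent, at 22 of 118 (18.6%) against 25.9% of all regions, a difference that was not tested. None of the 118 lay on an unplaced contig, in the first 3.5 Mb of a chromosome or was wider than 1 kb.

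The question of the comparison was whether NKX2.2 occupancy changes when Klf4 is knocked down. At an adjusted p-value (false discovery rate, FDR) of 0.05, 2 of the 118 solute carrier regions were called in the authors' deposited table, both listed as down. One lies inside the zinc transporter gene Slc30a4, and the other has Slc39a10 as its nearest protein-coding gene from 1956 kb away. That is 1.69% of them, against 1.36% of all 6758 regions. Of all regions, 0.592% were called and listed as down, and 0.769% were called and listed as up, where solute carriers had 0. At an FDR of 0.1 there were 3, against 2.31% of all regions. An unadjusted p under 0.05 was listed for 12 (10.2%, against 11.2% of all regions), 7 of them up and 5 down, where the backgrounds were 7.55% and 3.68%. These shares are near the background, so they are no result about solute carriers as a group.

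Log2 fold changes of the 118 regions in the authors' deposited table ran from -1.09 to 1.13, with a median of 0.08 against 0.04 over all regions. They were positive in 70 regions (59.3%, against 56.8% of all) and negative in 48. The direction column named 57 up, 38 down and 23 mixed. In 15 regions the best window had the opposite sign to the representative one. Regions with p of 0.05 or higher made up most of both signs, as the plot of fold change against p shows.

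**Figure D2:**
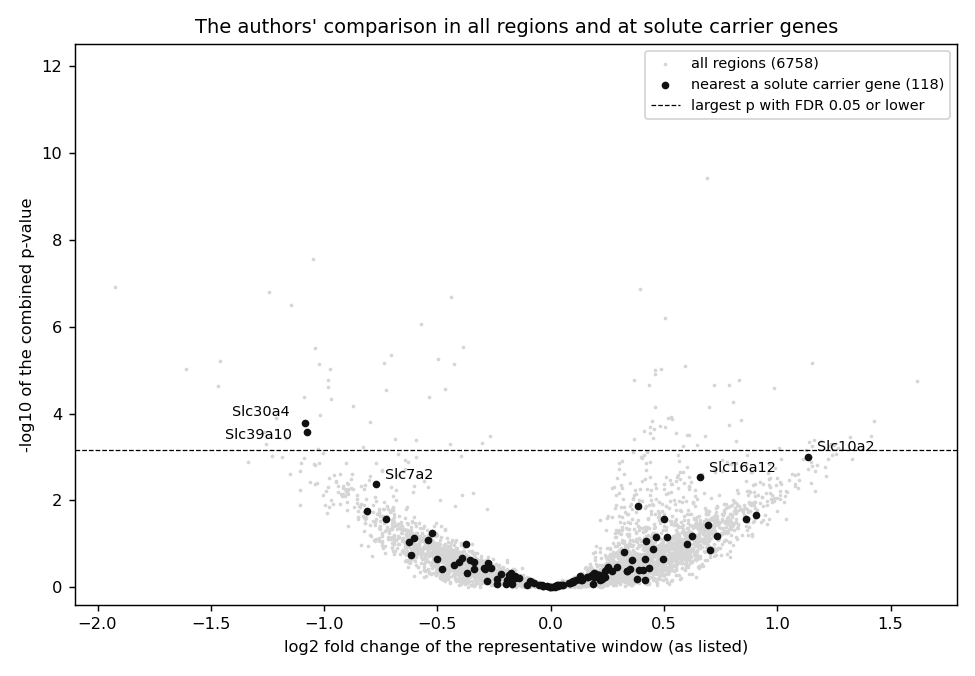
Each point is a region, with its log2 fold change on the x axis and the -log10 of its combined p-value on the y axis; grey points are all 6758 regions and black points the 118 nearest a solute carrier gene. The 2 black points above the dashed line, the largest p with an FDR of 0.05 or lower, are the region inside Slc30a4 and the region assigned to Slc39a10 from 1956 kb away.

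Carriers of metals and heme had 17 regions at 7 genes, 9 positive and 8 negative, and their median was 0.03 (log2 fold change, from the authors' deposited table). Slc30a4 encodes a transporter that moves zinc from the cytosol into vesicles. Its region, on chromosome 2 from 122681351 to 122682010, is 660 bp wide and lies inside the gene, 21.0 kb after the start site and 0.448 kb from the opposite end. Its log2 fold change was -1.09 (p = 0.000168, FDR 0.0214) in the authors' deposited table, with 3 of its 11 windows counted as down and none as up. The next protein-coding gene, AA467197, is 40.3 kb away. Such window counts do not cover every window of a sign: a region of 10 windows at Slc7a14 was named up with 0 counted. The other call was assigned to Slc39a10, which encodes a plasma membrane zinc importer, but over a large distance. This 110 bp region on chromosome 1 from 48881501 to 48881610 lies 1956 kb from the gene and 2019 kb from the next one, Tmeff2. Its log2 fold change was -1.08 (p = 0.000268, FDR 0.0297) in the authors' deposited table, and all 3 windows were counted as down. The nearest gene of any type is Gm8357, a pseudogene 85 bp away. Within 100 kb of a solute carrier gene, the call at Slc30a4 is thus the 1 that remains. The sign of the class median depended on which regions stood for a gene: over the 8 regions inside their gene or within 10 kb it was -0.23, and over the 7 gene medians -0.17.

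Slc39a11, which encodes another zinc importer, had 7 regions, the most of any solute carrier gene, spread over 524 kb. It is also a long gene, of 405 kb. Of its regions, 3 lay inside it and 4 beyond its 3′ end, at 29.8, 100.3, 141 and 198 kb. The nearest gene of any type to the closest of the 4 is the lncRNA gene Gm39505, 2.67 kb away. For the 3 farther ones the next protein-coding gene is Sox9, at 357, 315 and 259 kb. From the farthest of these 4 inward, the authors' deposited table gave log2 fold changes of 0.19, 0.42, -0.16 and 0.91, the last with a p of 0.0213 and an FDR of 0.30. Inside the gene the values in the authors' deposited table were 0.19 and 0.10 at 103 and 88.9 kb after a start site and -0.54 (p = 0.0795) at 4.82 kb before one. The regions of both signs thus sit at 1 gene, and none was called.

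Slc30a8, the zinc transporter of islet secretory granules, had 5 regions over 243 kb, and 1 of them lay inside the gene. That region had a log2 fold change of -0.29 (p = 0.362) in the authors' deposited table. The 2 regions on its lower-coordinate side, 79.4 and 16.8 kb away, were listed at 0.35 and 0.03 in the authors' deposited table. On the other side, 77.6 and 123 kb away, the authors' deposited table listed -0.29 and 0.16. The lowest FDR among the 5 was 0.867, so no difference was detected at this gene. Single regions lay at Slc30a1, the zinc exporter of the plasma membrane (-0.17), at Slc11a1, a divalent metal transporter of phagosomes (-0.50), and at the promoter of the zinc importer Slc39a3 (0.05), as log2 fold changes in the authors' deposited table.

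**Figure D3:**
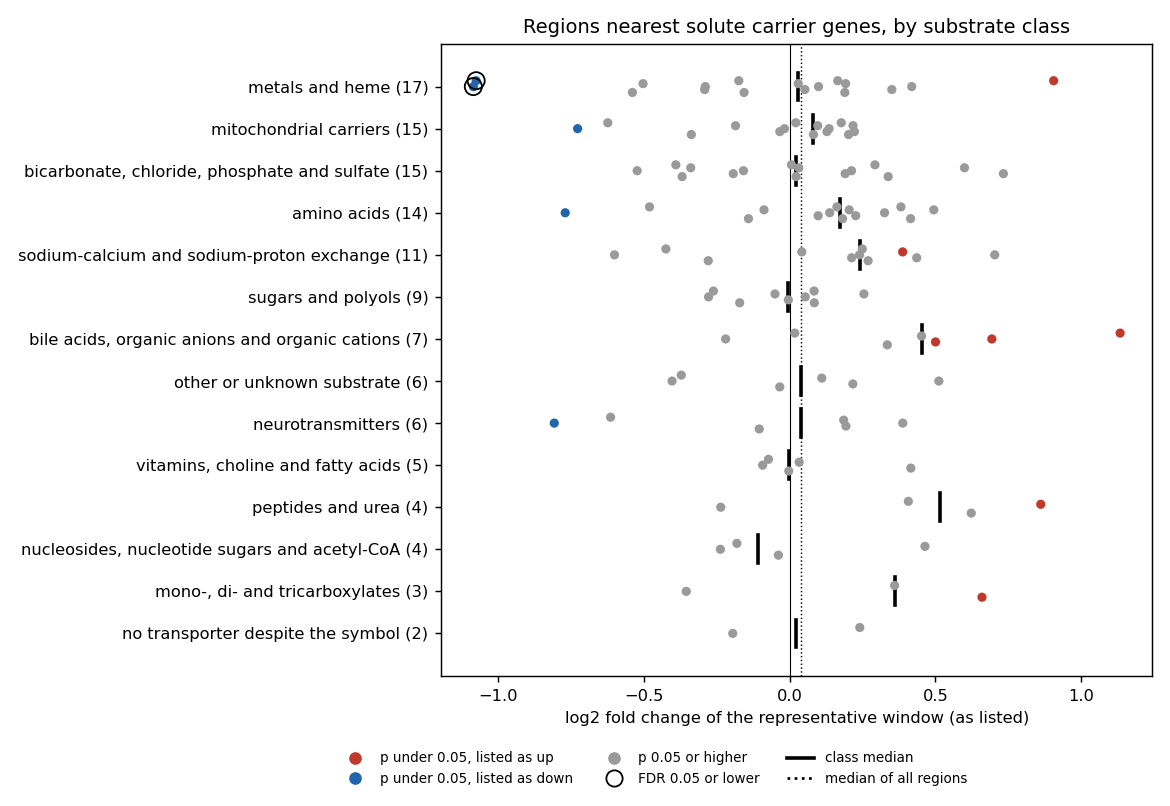
Each point is a region placed by its log2 fold change (x axis) in its substrate class (rows, number of regions in parentheses); colours mark p under 0.05 by direction, rings an FDR of 0.05 or lower, bars the class median and the dotted line the median of all regions. Both rings are in the metals class, and points of both signs occur in every class.

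Amino acid carriers had 14 regions at 11 genes, 10 positive and 4 negative, and their median was 0.17 (log2 fold change, from the authors' deposited table). None was called. Slc7a2 encodes a carrier of arginine, lysine and ornithine. Its region, on chromosome 8 from 40871401 to 40871560, lies inside the gene 9.14 kb from an end. The authors' deposited table listed it at -0.77, the lowest of the class, with a p of 0.00423 and an FDR of 0.135, and counted 3 of its 4 windows as down. Slc7a14, a lysosomal member of the same family, had 3 regions inside the gene. All 3 were positive, at 0.41, 0.33 and 0.20 in the authors' deposited table, with p-values of 0.222, 0.152 and 0.571. The smallest FDR there was 0.671.

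Slc7a5 encodes the light chain and Slc3a2 the heavy chain of a carrier of large neutral amino acids. The region 2.79 kb outside Slc7a5 was listed at -0.48 (p = 0.384) and the one inside Slc3a2, 0.992 kb after a start site, at 0.49 (p = 0.225) in the authors' deposited table. These values have opposite signs and neither was called. Slc3a1, the heavy chain of the cystine carrier, had 2 regions inside it, at 0.38 and -0.09 in the authors' deposited table. The glutamine carrier Slc38a1 (0.23), the taurine carrier Slc6a6 (0.14), Slc43a2 (0.16), Slc36a4 (0.18), Slc6a14 (0.10, at 571 kb) and the lysosomal Slc66a1 (-0.14) had 1 region each, with log2 fold changes in parentheses from the authors' deposited table. Their p-values were 0.528 or higher. Of 16 amino acid carriers listed for their link to alpha cells or amino acid supply, 5 had a region (Slc7a2, Slc7a5, Slc7a14, Slc3a2 and Slc38a1) and 11 had none, among them Slc7a8, Slc38a2, Slc38a3, Slc38a4 and Slc1a5.

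The genes of amino acid sensing were those of the mTORC1 complex, its Rag and Ragulator partners, the Sestrin and Castor sensors and Casr. They had 19 regions at 10 of 18 genes (55.6%, against 20.8% of all protein-coding genes), a difference that was not tested. Of the 19, 12 lay outside their gene, and 5 were farther than 100 kb away. The authors' deposited table called none of the 19, against 1.36% of all regions, and listed 9 as positive with a median of -0.00 (2 with an unadjusted p under 0.05). The smallest p in the authors' deposited table, 0.0147 (FDR 0.250), was at a region inside Rptor, the mTORC1 subunit that binds substrates, with a log2 fold change of 0.42.

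Sodium-calcium and sodium-proton exchangers had 11 regions at 6 genes, 8 positive and 3 negative, and their median was 0.24 (log2 fold change, from the authors' deposited table). Slc24a2, a potassium-dependent sodium-calcium exchanger, held 5, all inside the gene and within 78.8 kb of each other. In order along the chromosome, the authors' deposited table gave 0.70, -0.60, 0.24, 0.27 and -0.43. The first and second of these, 34.7 and 43.9 kb from the gene's 3′ end, differed in sign, with p-values of 0.138 and 0.0721. Slc8a3, a sodium-calcium exchanger, had 2 neighbouring regions inside it at 0.44 and 0.25 in the authors' deposited table, and Slc8a1, the exchanger of heart muscle that islet cells also express, had 1 at -0.28 (p = 0.698). Slc24a3 had 1 region, at 0.21 in the authors' deposited table.

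**Figure D4:**
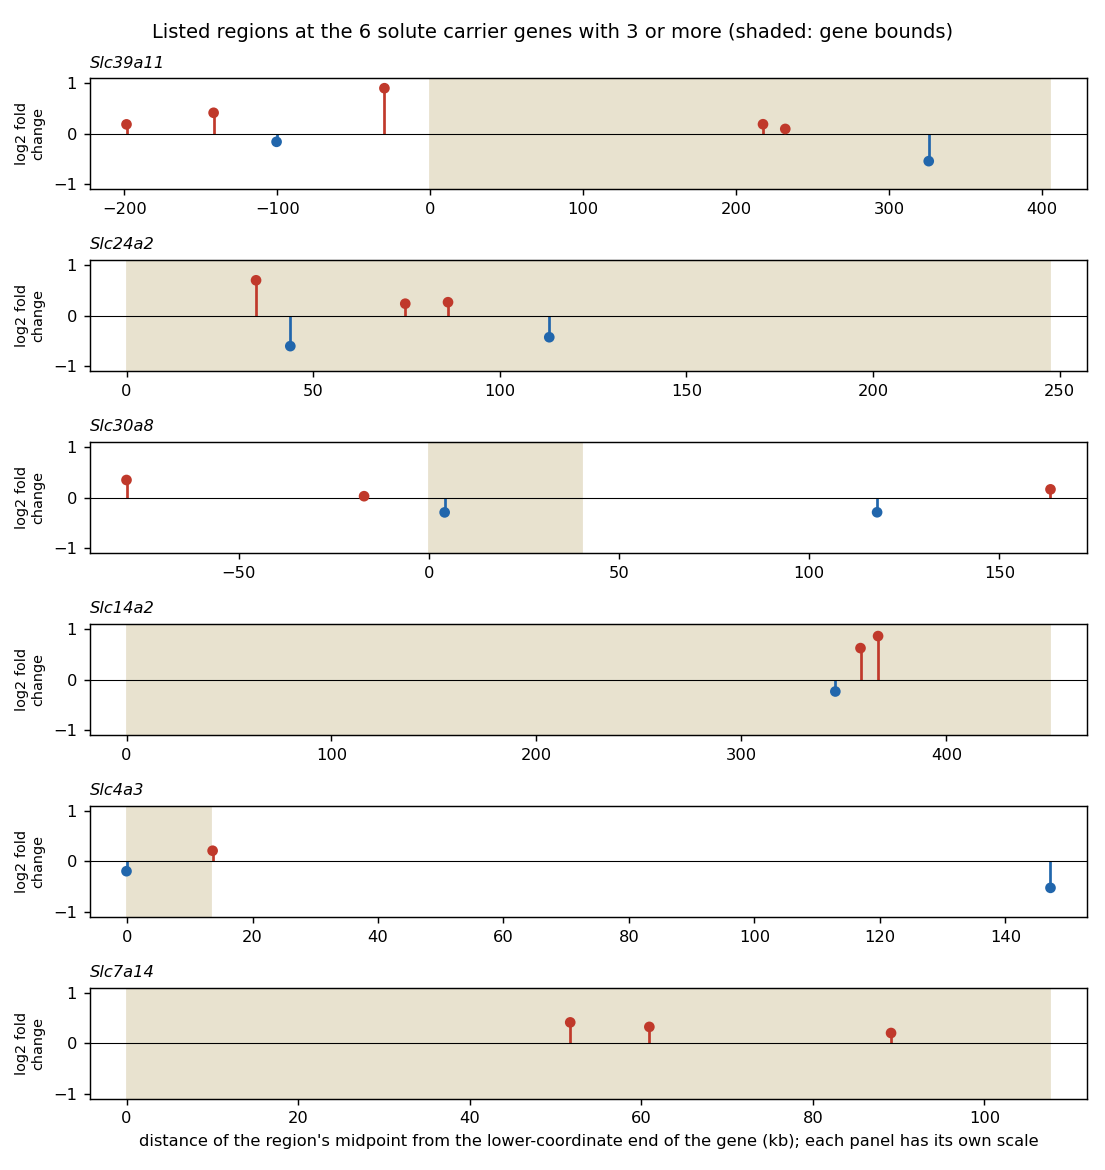
Panels show the 6 genes with 3 or more regions: the x axis is the distance of a region's midpoint from the lower-coordinate end of the gene in kb, shading marks the gene's bounds, and stems give the log2 fold change as listed (red up, blue down). Slc7a14 has 3 positive regions, and the other genes carry both signs.

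Carriers of bicarbonate, chloride, phosphate and sulfate had 15 regions at 12 genes, 9 positive and 6 negative, and their median was 0.02 (log2 fold change, from the authors' deposited table). None had a p under 0.05, and the smallest FDR was 0.472. Slc4a3, a chloride-bicarbonate exchanger of excitable tissues, had 3 regions, none inside it. The authors' deposited table listed -0.19 at the region 0.507 kb before a start site, 0.21 at the opposite end of the gene and -0.52 (p = 0.0561) at 134 kb. Slc4a8, a sodium-driven chloride-bicarbonate exchanger, had a promoter region at 0.60 (p = 0.0996) and one 15.8 kb after the start site at 0.03 in the authors' deposited table. The anion transporter Slc26a7 had an intragenic region at 0.73, with a p of 0.0647, in the authors' deposited table. At the other bicarbonate transporters with a region, Slc4a1, Slc4a2 and Slc4a5, the authors' deposited table listed -0.39, 0.34 and -0.37. The region assigned to Slc4a2 lies 0.001 kb from that gene and 0.014 kb from the next protein-coding gene, Cdk5. Of the Slc12 family, which holds the cation-chloride cotransporters, Slc12a1 (-0.34), Slc12a3 (-0.16), Slc12a7 (0.02), Slc12a8 (0.29) and Slc12a9 (0.19) had 1 region each, with log2 fold changes from the authors' deposited table and p-values of 0.337 or higher. Slc17a4, an anion transporter of the gut, was at 0.01 in the authors' deposited table.

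The class of mitochondrial carriers is the whole Slc25 family, including the peroxisomal Slc25a17 with 2 regions. Its 15 regions lay at 14 genes, 9 positive and 6 negative, and their median was 0.08 (log2 fold change, from the authors' deposited table). They stood close to gene ends, with 9 of 15 midpoints within 1 kb of one, and their highest value was 0.22. Slc25a16, linked to coenzyme A in mitochondria, had the lowest, -0.73 in the authors' deposited table (p = 0.0263, FDR 0.335), at the single-window region on the promoter shown above. The calcium-regulated ATP carrier Slc25a23 followed at -0.62 (p = 0.0890) in the authors' deposited table, 0.667 kb before its start site. The iron carrier Slc25a28 was listed at -0.34 and the phosphate carrier Slc25a3 at -0.19 in the authors' deposited table. At the promoters of the ornithine carrier Slc25a15 and the peroxisomal Slc25a17, log2 fold changes were 0.02 and 0.10 in the authors' deposited table. The carnitine carrier Slc25a20 (0.18), Slc25a42, which carries coenzyme A (0.22), and Slc25a33, which carries pyrimidine nucleotides (0.22), were positive in the authors' deposited table, with p-values of 0.558 or higher. Slc25a39 (-0.03), Slc25a43 (0.20), the branched-chain amino acid carrier Slc25a44 (-0.02) and Slc25a47 (0.14) had 1 region each, with log2 fold changes from the authors' deposited table.

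Carriers of bile acids, organic anions and organic cations had the lowest share of genes with a region. Their 7 regions lay at 5 genes, 6 positive and 1 negative, and their median was 0.45 (log2 fold change, from the authors' deposited table). A p under 0.05 was listed for 3, all up, where the background over all regions was 7.55%, and 2 of the 3 are neighbours far from their gene. Of these 3, 2 were assigned to Slc10a2, the bile acid transporter of the ileum, from 897 and 907 kb away, where the nearest gene of any type is the pseudogene Gm2734. The first, a single 10 bp window on chromosome 8 from 6002751 to 6002760, had the highest value of all 118 regions. In the authors' deposited table its log2 fold change was 1.13, with a p of 0.000993 and an FDR of 0.0632, so it was not called. The second was listed at 0.69 with a p of 0.0359 in the authors' deposited table. The third lay inside Slco1a5, an organic anion transporter, where 18 windows formed the widest solute carrier region, 860 bp. Its log2 fold change was 0.50 in the authors' deposited table, with 2 windows up, a p of 0.0270 and an FDR of 0.337. The midpoint of this region lies 10.96 kb before a start site of Slco1a5. The next protein-coding gene, Iapp, is 8.165 kb away, so the assignment to Slco1a5 rests on the bounds of that gene. A second region 13.6 kb outside Slco1a5 was listed at 0.45, and the thyroid hormone transporter Slco1c1 had 1 at 0.34, both in the authors' deposited table. Slco3a1 (0.02) and Slc22a15 (-0.22) completed the class, as listed in the authors' deposited table.

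Neurotransmitter carriers had 6 regions at 4 genes, 3 of either sign, and their median was 0.04 (log2 fold change, from the authors' deposited table). Slc32a1, which loads GABA and glycine into vesicles, had 2 regions before the gene, with midpoints 19.4 and 15.6 kb from a start site. They were listed at -0.81 (p = 0.0177, FDR 0.275, both windows down) and -0.10 (p = 0.904) in the authors' deposited table. The nearest gene of any type to the first is the lncRNA gene Gm14204, 4.06 kb away. The betaine and GABA carrier Slc6a12 was listed at -0.61 (p = 0.183) and the glycine carrier Slc6a5 at 0.19 in each of 2 regions in the authors' deposited table.

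Sugar and polyol carriers had 9 regions at 6 genes, 4 positive and 5 negative, with log2 fold changes between -0.28 and 0.25 in the authors' deposited table. The median was -0.00 and the smallest p 0.274, at a region 94.1 kb from Slc45a1. Slc2a3, a high-affinity glucose transporter, had 2 regions, -0.05 inside it and -0.26 at 8.39 kb, in the authors' deposited table. The fructose transporter Slc2a5 had 2 inside it at -0.17 and -0.00, and the glucose-6-phosphate antiporter Slc37a1 had 2 at 0.25 and 0.08 in the authors' deposited table. The inositol carriers Slc2a13 (0.08) and Slc5a3 (0.05) had 1 each, 33.8 and 62.7 kb away, as listed in the authors' deposited table.

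Monocarboxylate carriers had 3 regions. Slc16a12, which carries creatine, had the smallest p of any solute carrier region listed as up within 100 kb of its gene. This region on chromosome 19 from 34752601 to 34752960 lies 5.45 kb before the start site. The authors' deposited table gave it 0.66, with 5 of 8 windows up, a p of 0.00289 and an FDR of 0.113. A second region inside the gene was also positive, at 0.36 (p = 0.240), whereas the region 479 kb from Slc16a7 was at -0.36 (p = 0.229), both in the authors' deposited table.

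Peptide and urea carriers had 4 regions, and their median log2 fold change was 0.52 in the authors' deposited table. The urea transporter Slc14a2 held 3 of them within 21.0 kb inside the gene, listed at -0.24, 0.62 (p = 0.0662) and 0.86 (p = 0.0265, FDR 0.335) in the authors' deposited table. The lysosomal peptide and histidine carrier Slc15a4 was at 0.41 (p = 0.406) in the authors' deposited table, on the promoter shown above. That promoter belongs to a start site within the bounds of the gene, and the region's midpoint is 15.7 kb from the nearer gene end. Nucleoside and nucleotide sugar carriers had 4 regions. These were listed at 0.46 (p = 0.0690) 38.1 kb from Slc35c1, which carries GDP-fucose, at -0.04 for the nucleoside carrier Slc29a1, at -0.18 for Slc35a4 and at -0.24 for Slc35e2 in the authors' deposited table. Vitamin and choline carriers had 5 regions with p-values of 0.664 or higher. The ascorbate carrier Slc23a2 had 2 inside it (-0.09 and 0.03), and the choline carrier Slc44a1 (0.42), the folate carrier Slc19a1 (-0.00) and Slc46a3 (-0.07) had 1 each, as listed in the authors' deposited table.

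Members with other or unknown substrates had 6 regions at 5 genes, 3 of either sign. The promoter region of Slc35f6 was listed at -0.37 (p = 0.0979), the region upstream of Slc35g2 at 0.51 (p = 0.0701), and those inside Slc35f1 and Slc35f3 at -0.40 and 0.22 in the authors' deposited table. Slc22a23 had 2, at -0.03 and 0.11 in the authors' deposited table. Last, 2 members carry the symbol without being transporters: Slc9a3r1, a scaffold protein (0.24), and Slc4a1ap, an adaptor protein (-0.20), both with a region over the promoter, as listed in the authors' deposited table.

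Genes with several regions were often of 1 sign. Of the 20 solute carrier genes with more than 1 region, 9 had only positive and 3 only negative values, and 8 had both, so that 12 of 20 were of 1 sign against 509 (41.8%) of the 1218 genes with more than 1 region in the whole table. The numbers of regions per gene differ, since 14 of the 20 and 726 of the 1218 had 2, and the difference was not tested. Regions of 1 gene share their surroundings and are not replicates.

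Fold change was also set against the distance of a region's midpoint to the nearer gene end. Within 1 kb, the 22 solute carrier regions had a median log2 fold change of -0.03, against -0.05 for the 1752 regions of the whole table at that distance. From 1 to 10 kb the medians were -0.06 (24 regions) and 0.07, from 10 to 100 kb 0.18 (55 regions) and 0.12, and beyond 100 kb 0.10 (17 regions) and 0.08. Positive values made up 39 of the 55 solute carrier regions at 10 to 100 kb (70.9%, against 64.6% of all regions there), 10 of the 22 within 1 kb (45.5%, against 41.5%) and 10 of the 24 at 1 to 10 kb (41.7%, against 59.7%). These differences were not tested. Where the strand is known, 11 of the 17 regions within 1 kb of a gene end lay within 1 kb of a start site and 6 did not. Of these 6, the regions at Slc30a4, Slc11a1 and the 3′ end of Slc4a3 lay at the end opposite the start. Those at Slc4a2, Slc25a39 and Slc25a47 lay 1.55, 1.06 and 1.02 kb before a start site.

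**Figure D5:**
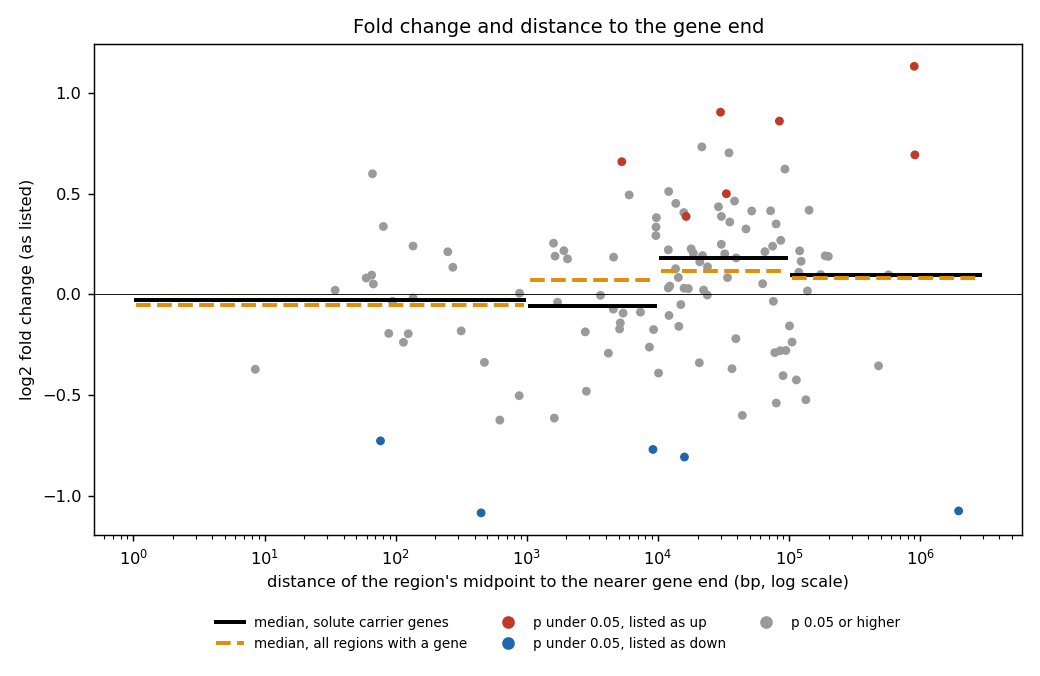
Each point is 1 of the 118 regions, with the distance of its midpoint to the nearer end of its gene in bp (log scale) on the x axis and its log2 fold change on the y axis; black lines are medians of the solute carrier regions per distance range and dashed lines those of all regions with a gene. The black line is highest, at 0.18, from 10 to 100 kb.

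Transporter families without the Slc name (ABC, ATPase pump and aquaporin genes) had 47 regions at 28 of 123 genes, none of them an aquaporin gene. Their median log2 fold change was 0.02 in the authors' deposited table, with 29 positive and 18 negative, and 1 of 47 was called against 1.36% of all regions. It lies inside Atp6v1b2, a subunit of the proton pump that acidifies vesicles, on chromosome 8 from 69090001 to 69090060. Its log2 fold change was -1.21 in the authors' deposited table (FDR 0.0182).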

How the data were processed

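NKX2.2 ChIP-seq of alphaTC6 cells was compared between 3 Klf4-KD and 4 scramble samples; 7 input samples were not analysed here. 1 deposited table was used, the authors' csaw comparison, per the series' design text. The submitters' processing notes name mm10 (the UCSC name of GRCm38), FastQC, Bowtie2 and MACS2; versions, filters, normalization and use of inputs are not given in the sources used here. Per the file headers, a region's row gives a p-value combined over its windows, the adjusted p-value, and a log2 fold change taken from 1 window. All log2 and p-value columns were used as deposited, and the FDR column equals a Benjamini-Hochberg adjustment over all 6758 regions (largest difference 1.27e-14). Window numbers are also per the file headers, and the windows counted as up or down are not all windows of that sign. No column belongs to a single sample, so no replicate error or interval can be given, and library depth is unknown.

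Regions were assigned to RefSeq genes of GRCm38.p6, possible for 6726 regions on assembled chromosomes. Start sites and strand came from the RefSeq promoter table. No promoter entry was found for 20 genes. Slc genes were put in substrate classes by family, with exceptions by gene; Slc4a1ap was moved to the members that are no transporters after its value had been seen. Named regions are all at an FDR of 0.1 or lower, the 10 with the smallest p in each direction, the 10 genes with most regions, the gene with most regions and the 2 smallest p-values of each class, and fixed lists of amino acid and islet transporters; of the 24 islet transporters, 6 had a region, among them Slc2a3, Slc30a8, Slc8a1, Slc29a1 and Slc35f3, and none of their 11 regions was called. Other members were named to account for every class, and a few are not reported here. Members, classes and lists were chosen with earlier results of these data known. The planned motif count over regions was made on promoter windows instead, as no genome was used. Functions for nearest genes and adjustment were tested on simulated data. Software was Python 3.11.15 with pandas 2.3.3, scipy 1.17.1, numpy 2.4.6 and, for plots, matplotlib 3.10.9.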

Additional observations from a re-analysis of the deposited data

How the results depend on the processing

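Replicates could not be left out, and other normalizations or filters on low counts were not run, since single libraries have no column. No paired analysis was possible because no column belongs to a sample with a number. The count of 2 called regions was also 2 with the best-window FDR, with regions of at least 2 windows, without contigs, regions over 1 kb and chromosome starts, and with distances from midpoints, and it was 3 at an FDR of 0.1. It was 0 at an FDR of 0.01 (csaw; 12 regions had an unadjusted p under 0.05), and 1 within 10 kb, within 100 kb or with genes of all types, where the region assigned to Slc39a10 drops out by construction. Genes of all types left 83 of the 118 regions. Across the 118 regions the median of 0.08 (log2 fold change) was 0.22 with the best window and stayed between 0.04 and 0.08 under the other 7 alternatives. Over all regions the median also rose with the best window, from 0.04 to 0.15. Among the class medians, with the best window, metals and heme moved from 0.03 to 0.23 and vitamins, choline and fatty acids from -0.00 to -0.14. The sign changed in 7 of 42 class medians under 3 alternatives, among them neurotransmitters over genes (-0.13) and other or unknown substrates within 10 kb (-0.20). The cause was not tested. Since depth is unknown, a region that was not called is not shown to be the same in both groups.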
